A study of Mus musculus with 16 samples.

Results

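The 10 genes described here are transcripts that insulin represses and fasting hormones raise in liver, together with the enzymes of gluconeogenesis: Igfbp1, Ppargc1a, Foxo1, Irs2, Lpin1, Ddit4, Pck1, G6pc, Fbp1 and Pcx. They were chosen by name, with earlier results of these data known. All 10 were found among the 25006 genes counted in mouse liver, and all 10 were among the 13180 genes that passed a filter on low counts and were tested. Liver poly(A) RNA was read in 16 libraries from C57BL/6 mice, an inbred laboratory strain, in 4 groups of 4. The groups were a fast food slurry with antibiotics in the drinking water, a chow slurry with antibiotics, a fast food slurry with control water, and a chow slurry with control water. Every mouse received its slurry as 1 gavage, and livers were collected 4 h afterwards, so all groups had been fed and no unfed group is analysed here. The sources used here do not give the antibiotics, the length of treatment, or the age and sex of the mice. Mice were assigned to their water at random, per the labels, which leave unsaid whether each library came from its own mouse. The p-values may therefore reflect technical spread alone.

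Between meals, falling insulin frees the forkhead factor FOXO1 to enter the nucleus, while glucagon, acting through cyclic AMP and CREB, and glucocorticoids add their own signals to the promoters of these genes. The products divide into secreted and signalling proteins (IGFBP1, IRS2, DDIT4), regulators of transcription (PGC-1alpha, encoded by Ppargc1a, FOXO1 and lipin 1) and the enzymes that make glucose from lactate, amino acids and glycerol (pyruvate carboxylase from Pcx, PEPCK from Pck1, fructose-1,6-bisphosphatase from Fbp1 and glucose-6-phosphatase from G6pc). In a fed liver, insulin normally holds Igfbp1, Irs2, Pck1 and G6pc low.

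Libraries differed in ways that the groups do not fully explain. Total counts ran from 8954378 to 18954655. In 9 libraries, here called low-share, between 0.12% and 0.587% of counts fell in Lars2, Mir6236, Gm20594 and Mir6240, 4 features that collect rRNA-like reads. In the other 7, here called high-share, between 2.45% and 8.42% did. Both chow groups held 2 of each kind, the fast food antibiotic group held 3 high-share libraries and 1 low-share library, and all 4 fast food control libraries were low-share. Acute phase transcripts were highest in fast food antibiotic replicate 2, chow antibiotic replicate 4 and chow control replicate 2 within their groups. Markers of kidney tubule, an organ that also makes glucose, summed to at most 0.206 CPM (counts scaled to a common library size) in any library, with Kap at 0 in all 16, and exocrine pancreas markers summed to at most 0.701 CPM.

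The promoters of 6 of the genes are shown because letters of short sequences linked to these hormones were found in them. The bases are from RefSeq (GRCm38.p6), read 5′ to 3′ on the strand of the gene, up to 250 bases before its start and trimmed of annotated exons. Capitals mark CAAAACA (a forkhead core, part of what is known as the insulin response element), TGACGT (a cyclic AMP response core) or AGAACA (a core of glucocorticoid response elements), or the reverse complement of each. The regions are chr11:7197537-7197781 on the plus strand for Igfbp1, chr8:11008930-11009179 on the minus strand for Irs2, chr11:101367466-101367560 on the plus strand for G6pc, chr2:173152823-173153047 on the plus strand for Pck1, chr5:51567727-51567975 on the minus strand for Ppargc1a and chr12:16610967-16611216 on the minus strand for Lpin1.
Igfbp1: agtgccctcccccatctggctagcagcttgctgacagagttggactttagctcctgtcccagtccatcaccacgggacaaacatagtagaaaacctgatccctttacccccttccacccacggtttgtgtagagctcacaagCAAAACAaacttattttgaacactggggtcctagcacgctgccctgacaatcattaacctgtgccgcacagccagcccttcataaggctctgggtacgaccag
Irs2: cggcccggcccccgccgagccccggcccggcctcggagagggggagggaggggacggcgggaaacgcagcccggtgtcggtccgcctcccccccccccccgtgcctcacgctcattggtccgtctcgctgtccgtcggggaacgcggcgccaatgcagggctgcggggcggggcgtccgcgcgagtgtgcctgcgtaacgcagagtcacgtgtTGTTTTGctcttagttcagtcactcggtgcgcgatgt
G6pc: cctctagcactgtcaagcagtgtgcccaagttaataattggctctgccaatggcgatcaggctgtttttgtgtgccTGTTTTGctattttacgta
Pck1: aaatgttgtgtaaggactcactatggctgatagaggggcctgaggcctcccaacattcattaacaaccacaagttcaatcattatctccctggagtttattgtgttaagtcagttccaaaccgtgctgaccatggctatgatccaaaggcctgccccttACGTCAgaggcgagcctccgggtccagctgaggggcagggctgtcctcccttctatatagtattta
Ppargc1a: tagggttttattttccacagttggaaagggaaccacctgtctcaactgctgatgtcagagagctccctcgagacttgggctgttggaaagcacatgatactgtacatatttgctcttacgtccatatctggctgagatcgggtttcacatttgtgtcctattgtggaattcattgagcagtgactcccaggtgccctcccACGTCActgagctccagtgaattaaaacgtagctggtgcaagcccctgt
Lpin1: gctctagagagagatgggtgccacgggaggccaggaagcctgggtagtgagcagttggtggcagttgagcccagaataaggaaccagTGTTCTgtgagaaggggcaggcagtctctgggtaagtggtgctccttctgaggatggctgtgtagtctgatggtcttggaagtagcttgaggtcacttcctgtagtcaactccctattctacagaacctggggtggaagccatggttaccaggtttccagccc

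Among the 11 promoters listed for the 10 genes, CAAAACA was present in 3 on either strand, those of Igfbp1 (bases -108 to -102), G6pc (-174 to -168) and Irs2 (-37 to -31), and in 5.56% of all 32851 promoters of the same length. TGACGT was present in 2, those of Pck1 (-91 to -86) and Ppargc1a (-50 to -45), against 6.47% of all promoters. The shorter TGACG inside it was found in the same 2, against 17.8% of all. AGAACA was present in the promoter of Lpin1 (-163 to -158) and in 16.1% of all, TATAAA in that of G6pc (-29 to -24, outside the printed stretch) and in 12.4% of all, and a further forkhead core, GTAAACA, in no promoter of the 10 genes and in 3.17% of all. These matches describe letters in the sequence and are not measured binding sites. The whole genes lie, in GRCm38, at chr11:7197782-7202546 for Igfbp1, chr12:16535669-16610966 for Lpin1, chr10:59949669-59951834 for Ddit4, chr8:10984681-11008458 for Irs2, chr5:51454250-51567726 for Ppargc1a, chr3:52268336-52353221 for Foxo1, chr2:173153048-173159273 for Pck1, chr11:101367561-101377903 for G6pc, chr13:62864753-62888282 for Fbp1 and chr19:4510472-4621752 for Pcx.

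Antibiotic water was compared with control water in mice given chow, to ask how antibiotic treatment goes with these transcripts at a fixed meal. The gut microbiota was not measured in the data used here. A loss of microbes and other actions of the antibiotics therefore cannot be told apart. All 6 secreted, signalling and regulatory genes of the list rose in antibiotic-treated mice, and none of the 4 enzymes passed the test. A gene is said to rise or fall where its Benjamini-Hochberg adjusted p over all 13180 genes was below 0.05 in edgeR's quasi-likelihood test, two-sided. By that rule 23.8% of all genes passed in this comparison, 10.6% as higher. The median log2 fold change was 1.07 over the 10 genes and -0.01 over all genes tested.

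Igfbp1, a secreted protein that binds insulin-like growth factors, had 1382, 1550, 3440 and 2969 CPM in chow antibiotic livers, against 103, 471, 144 and 78.6 CPM in chow control livers. The groups did not overlap, although chow control replicate 2 stood well above its own group. The log2 fold change was 3.55 ± 0.86 (SE, edgeR adjusted p = 0.0101), and 4.43 without chow control replicate 2.

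Lpin1, a phosphatidate phosphatase and coactivator that PGC-1alpha induces on fasting, had 1646, 1807, 2560 and 1049 CPM in chow antibiotic livers, against 125, 119, 162 and 196 CPM in chow control livers. Every antibiotic library lay far above every control library. Lpin1 changed by 3.55 ± 0.50 on the log2 scale (adjusted p = 0.00033), the lowest p of the list.

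Ddit4, also called REDD1, an inhibitor of mTORC1 that glucocorticoids induce, had 70.3, 76.8, 291 and 15.1 CPM in chow antibiotic livers, against 3.22, 5.63, 8.63 and 2.88 CPM in chow control livers. The groups did not overlap, but the antibiotic libraries differed among themselves by 19.3-fold. The log2 fold change was 4.45 ± 0.97 (edgeR adjusted p = 0.00609), and 3.39 without chow antibiotic replicate 3, the highest library.

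Irs2, the adaptor that carries the insulin receptor's signal in liver and is itself repressed by insulin, had 95.04, 128, 173 and 444 CPM in chow antibiotic livers, against 55.2, 106, 33.1 and 33.5 CPM in chow control livers. The lowest antibiotic library lay below the highest control library, so the groups overlapped. Irs2 rose by 1.88 ± 0.50 (adjusted p = 0.0151), and by 1.24 without chow antibiotic replicate 4, its highest library. The exons of Irs2 share 162 bases with 9530052E02Rik on the opposite strand, and the strand setting of the counting is not given, so a part of its reads could belong to that gene.

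Ppargc1a, the coactivator PGC-1alpha that drives gluconeogenic and mitochondrial genes, had 21.2, 29.7, 70.3 and 32.4 CPM in chow antibiotic livers, against 17.9, 13.4, 13.9 and 11.6 CPM in chow control livers. These groups did not overlap (log2 fold change 1.45 ± 0.37, adjusted p = 0.0117). Foxo1, the forkhead factor itself, had 51.5, 59.8, 46.0 and 34.4 CPM in chow antibiotic livers and 27.7, 45.3, 25.9 and 20.2 CPM in chow control livers. Its groups overlapped, and the log2 fold change was 0.69 ± 0.23 (adjusted p = 0.042). The exons of Foxo1 share 674 bases with the antisense gene Gm20402, whose reads could be counted in it. Without overlap between the groups were 4 of the 10 genes, Igfbp1, Ppargc1a, Lpin1 and Ddit4, as were 11.2% of all genes in the higher direction.

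The calls of Igfbp1, Ppargc1a, Irs2, Lpin1 and Ddit4 held whichever of the 16 libraries was left out. That of Foxo1 held in 8 of 16 such fits and was lost without chow control replicate 1, 3 or 4, fast food control replicate 1 or 3, or chow antibiotic replicate 1, 2 or 3 (adjusted p up to 0.111). In a fit of the 2 chow groups alone, Irs2 (edgeR adjusted p = 0.0717) and Foxo1 (adjusted p = 0.0743) did not pass, which left 4 of the 10 called, and without a count filter Foxo1 did not (adjusted p = 0.0578).

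The chow arm can be divided by rRNA-like share into 2 against 2 libraries on each side. Among low-share libraries the log2 fold changes were 4.43 for Igfbp1, 3.55 for Lpin1, 4.96 for Ddit4, 2.00 for Irs2, 1.83 for Ppargc1a and 1.07 for Foxo1, of which all but Ppargc1a (edgeR adjusted p = 0.0642) passed. The share of all genes that passed in that fit is not given here. Among high-share libraries the log2 fold changes were 2.99, 3.57, 3.39, 1.83, 1.01 and 0.39 in the same order, all positive. None of the 6 passed in a fit that called 3 genes in the whole table. Hepatocyte marker transcripts summed to between 131277 and 192855 CPM in chow antibiotic livers, against 84574 to 114997 CPM in chow control livers, and Kupffer cell markers to between 114 and 149 CPM against 170 to 525 CPM. In whole liver, fewer cells of a type and less RNA per cell cannot be told apart, and the part of these shifts in the results was not tested.

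**Figure D1:**
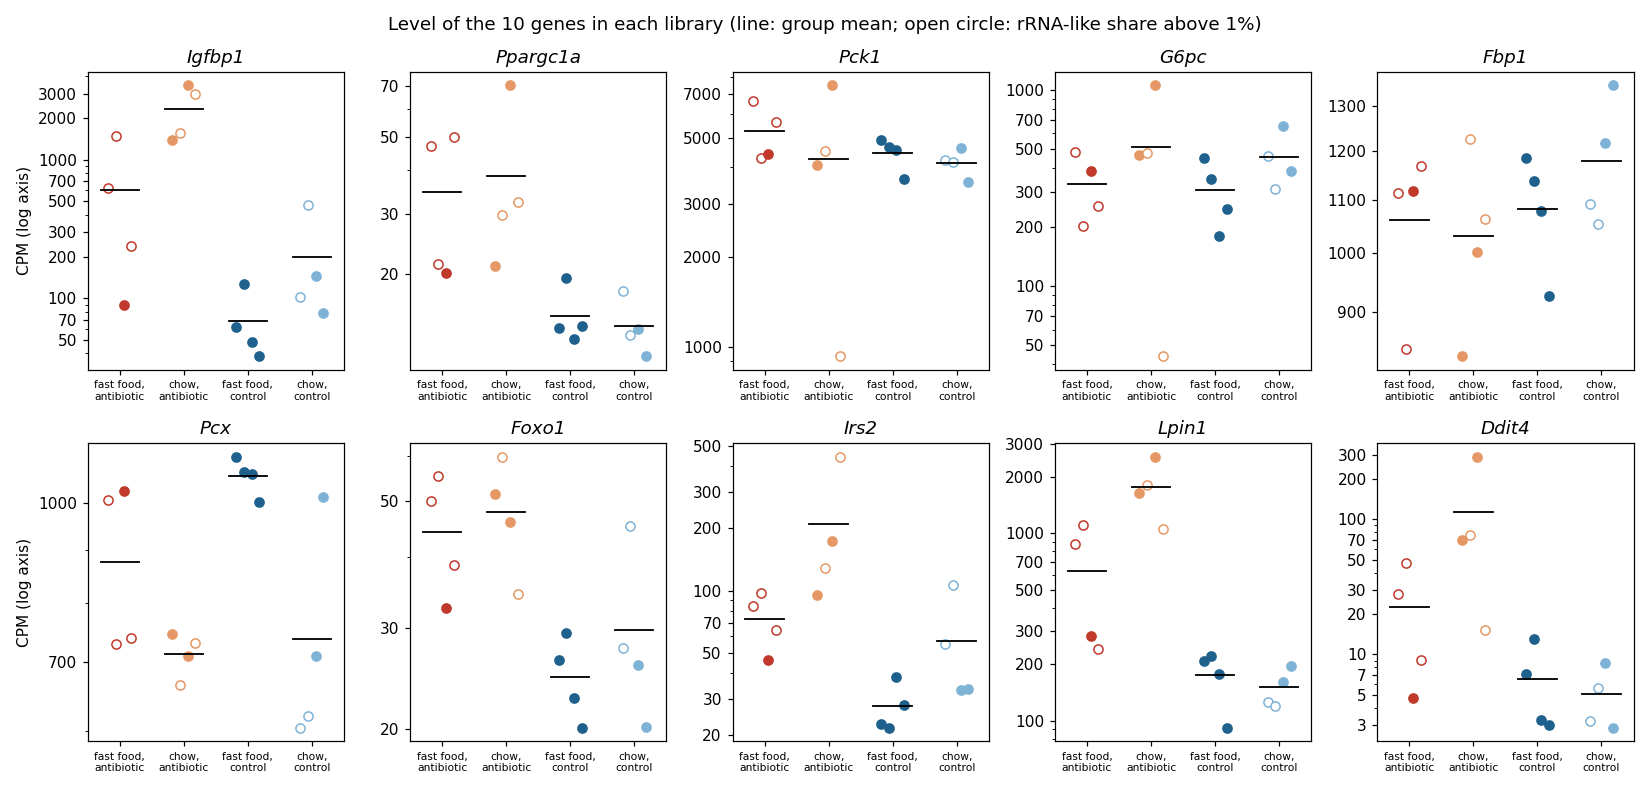
Level of each of the 10 genes in CPM (log axis) in the 16 libraries, by group from left to right: fast food with antibiotic, chow with antibiotic, fast food with control water and chow with control water. Each point is a library, open where its rRNA-like share is above 1%, and the line is the group mean. Igfbp1, Lpin1 and Ddit4 are highest in chow antibiotic livers, while Pck1, G6pc and Fbp1 overlap in all groups.

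The 4 enzymes behaved otherwise. Pck1, whose PEPCK makes phosphoenolpyruvate from oxaloacetate, had 4073, 4513, 7504 and 933 CPM in chow antibiotic livers, against 4217, 4149, 4623 and 3566 CPM in chow control livers. The antibiotic group held both the highest and the lowest Pck1 level of all 16 libraries. The difference was 0.04 ± 0.39 on the log2 scale, with a 95% interval from -0.79 to 0.87.

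G6pc, whose phosphatase releases free glucose, had 466, 479, 1054 and 43.9 CPM in chow antibiotic livers, against 460, 311, 656 and 387 CPM in chow control livers. Its extremes fell in the same libraries as those of Pck1, chow antibiotic replicates 3 and 4. The difference was 0.17 ± 0.63 (95% interval -1.18 to 1.52), so changes of more than 2-fold either way are inside the interval.

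Fbp1, which removes a phosphate from fructose-1,6-bisphosphate, lay between 831 and 1227 CPM in chow antibiotic livers and between 1054 and 1350 CPM in chow control livers (log2 difference -0.19 ± 0.14, 95% interval -0.49 to 0.10). Pcx, the mitochondrial entry step from pyruvate, lay between 665 and 745 CPM in chow antibiotic livers and between 605 and 1014 CPM in chow control livers (-0.05 ± 0.16, -0.38 to 0.29). Of the 4 enzymes Fbp1 passed in the low-share libraries alone (-0.50, edgeR adjusted p = 0.0359), with 0.12 among the high-share libraries.

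Chow antibiotic replicate 4 combined the lowest Pck1 and G6pc of the 16 libraries with the highest Irs2. It also stood high in acute phase transcripts, as said above, and had an rRNA-like share of 7.69%. Without it the antibiotic difference was 0.40 for Pck1 and 0.58 for G6pc, and without chow antibiotic replicate 3, which held the highest Pck1, G6pc, Igfbp1, Ddit4 and Ppargc1a, it was -0.38 and -0.46. Neither gene passed in either fit.

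The same comparison in mice given the fast food slurry asks whether the antibiotic difference holds with the other meal. Of the 10 genes 3 rose, Igfbp1, Foxo1 and Lpin1, and none fell, where 5.99% of all genes passed and 3.77% were higher. The median log2 fold change was 1.01 over the 10 genes and 0.02 over all genes.

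Igfbp1 had 624, 1479, 89.5 and 238 CPM in fast food antibiotic livers, against 61.8, 127, 48.6 and 38.1 CPM in fast food control livers. Replicate 3 of the antibiotic group lay inside the control range, and the group spread over 16.5-fold. The log2 fold change was 3.14 ± 0.84 (edgeR adjusted p = 0.0472), and it was 2.20 and did not pass without fast food antibiotic replicate 2.

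Lpin1 had 878, 1104, 283 and 241 CPM in fast food antibiotic livers, against 209, 222, 178 and 92.0 CPM in fast food control livers, with no overlap (1.84 ± 0.46, adjusted p = 0.0383). Foxo1 had 49.9, 55.4, 32.5 and 38.7 CPM in fast food antibiotic livers, against 26.4, 29.4, 22.6 and 20.1 CPM in fast food control livers, also without overlap (0.84 ± 0.23, adjusted p = 0.0468).

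For 2 further genes the groups stood apart without passing the test. Irs2 had 84.4, 96.8, 46.4 and 64.6 CPM in fast food antibiotic livers and 22.6, 21.8, 38.3 and 28.1 CPM in fast food control livers (1.40 ± 0.49, adjusted p = 0.0988). Ppargc1a had 46.9, 21.5, 20.2 and 50.0 CPM against 13.96, 19.5, 13.0 and 14.2 CPM in the same groups (1.18 ± 0.36, adjusted p = 0.0661). With Lpin1 and Foxo1 this makes 4 of the 10 genes higher without overlap, as were 9.98% of all genes.

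Ddit4 had 27.8, 47.5, 4.74 and 9.15 CPM in fast food antibiotic livers, against 7.12, 13.1, 3.26 and 3.00 CPM in fast food control livers, groups that overlapped (1.75 ± 0.89, adjusted p = 0.234). The enzymes had log2 differences of 0.24 ± 0.39 for Pck1, 0.10 ± 0.63 for G6pc, -0.03 ± 0.14 for Fbp1 and -0.28 ± 0.16 for Pcx, and none passed. Their 95% intervals all held 0.

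These 3 calls were near the threshold. All 3 were lost without a count filter, and those of Igfbp1 (edgeR adjusted p = 0.0795) and Lpin1 (adjusted p = 0.0849) in a fit of the 2 fast food groups alone. Without the 3 libraries highest in acute phase transcripts the log2 fold changes were 2.18 for Igfbp1 (adjusted p = 0.0741) and 1.40 for Lpin1 (adjusted p = 0.0886). Igfbp1 kept its call in 2 of the 16 fits that left out 1 library (those without chow control replicate 2 or fast food antibiotic replicate 3), Foxo1 in 5 (without chow control replicate 2, 3 or 4, chow antibiotic replicate 4 or replicate 3 of the fast food antibiotic group), and Lpin1 in 8. Lpin1 lost it without any of the 4 fast food control libraries, chow antibiotic replicate 1 or 2, or replicate 1 or 2 of the fast food antibiotic group. When the model held the rRNA-like share, either as a covariate or as a term for its low and high side, edgeR called no gene in the whole table for this comparison, and in those fits the log2 fold changes were 2.65 and 2.04 for Igfbp1, 2.27 and 1.95 for Lpin1 and 0.63 and 0.54 for Foxo1. Only fast food antibiotic replicate 3 shares the low share of the control libraries, so a fit within either side was not possible. That library had 283 CPM of Lpin1 and 32.5 CPM of Foxo1, above the fast food control range, and 89.5 CPM of Igfbp1, within it.

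The meal comparison was made in each water to ask how a fast food slurry differs from chow 4 h after the gavage. In antibiotic water Lpin1 was the only gene of the 10 that passed, and it fell after fast food, where 13.7% of all genes passed and 5.87% were lower. From the values given above, its fast food antibiotic libraries spanned 241 to 1104 CPM and its chow antibiotic libraries 1049 to 2560 CPM, which overlap at their ends (-1.50 ± 0.46, edgeR adjusted p = 0.0458).

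Irs2 (-1.52 ± 0.49, edgeR adjusted p = 0.0547), Ddit4 (-2.36 ± 0.87, adjusted p = 0.0886) and Igfbp1 (-1.94 ± 0.80, adjusted p = 0.123) had negative log2 differences in antibiotic water that did not pass. Ppargc1a (-0.16 ± 0.36) and Foxo1 (-0.12 ± 0.23) had values close to 0. The enzymes had 0.31 ± 0.39 for Pck1, -0.63 ± 0.63 for G6pc, 0.04 ± 0.14 for Fbp1 and 0.30 ± 0.16 for Pcx, each with a 95% interval that held 0.

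The Lpin1 call in antibiotic water was kept without fast food control replicate 4, chow antibiotic replicate 4 or replicate 2 of the fast food antibiotic group, and lost without any of the other 13 libraries (adjusted p up to 0.115). It was also lost with the rRNA-like share as covariate (-1.30, edgeR adjusted p = 0.0844), with the term for its low and high side (-1.43, adjusted p = 0.0753), without a count filter (adjusted p = 0.08) and in a fit of the 2 groups alone (adjusted p = 0.135). Without fast food antibiotic replicate 2, which had high acute phase transcripts, Igfbp1 (-2.89, edgeR adjusted p = 0.0275), Irs2 (-1.70, adjusted p = 0.0492), Lpin1 (-1.92, adjusted p = 0.013) and Ddit4 (-3.07, adjusted p = 0.0434) all passed as lower after fast food. The share of all genes that passed in that fit is not given here. Within the high-share libraries, 3 fast food against 2 chow, the log2 values of these genes were -1.55, -1.82, -0.97 and -0.75 in the same order. None of them passed in a fit that called 1 gene in the whole table.

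In control water none of the 10 genes passed between the meals by edgeR, where 0.577% of all genes did. At an unadjusted p under 0.05 there was 1, Pcx, with 1110, 1071, 1068 and 1002 CPM in fast food control livers, against 605, 621, 709 and 1014 CPM in chow control livers. Chow control replicate 4 reached the fast food range. The log2 fold change was 0.53 ± 0.16 (edgeR adjusted p = 0.159), DESeq2 called it (adjusted p = 0.0427), as did edgeR without chow control replicate 4 (0.74, adjusted p = 0.0305), and it was 0.30 among the low-share libraries.

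Other log2 differences after fast food in control water were -1.53 ± 0.79 for Igfbp1, -1.04 ± 0.49 for Irs2 and -0.56 ± 0.63 for G6pc, and those of the remaining 6 genes lay between -0.27 and 0.35. Chow control replicate 2 was the highest library of its group for Igfbp1, Irs2 and Foxo1, and without it the Igfbp1 difference was -0.66.

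Whether the antibiotic difference depended on the meal was tested as the interaction, fast food minus chow. None of the 10 genes passed by edgeR, where 3.94% of all genes did. Lpin1 had an interaction of -1.71 ± 0.64 (edgeR adjusted p = 0.142, 95% interval -3.09 to -0.34) and was the only one of the 10 at an unadjusted p under 0.05, and DESeq2 called it (-1.74, adjusted p = 0.0331). Ddit4 had -2.71 ± 1.25 (edgeR adjusted p = 0.237, 95% interval -5.42 to 0.00), and the other 8 genes lay between -0.48 and 0.20. The smaller number of calls with fast food is therefore not shown to be a difference between the meals for these genes. In the test of any difference among the 4 groups, 7 of the 10 passed (Igfbp1, Ppargc1a, Foxo1, Irs2, Lpin1, Ddit4 and Pcx), where 32.6% of all genes did.

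**Figure D2:**
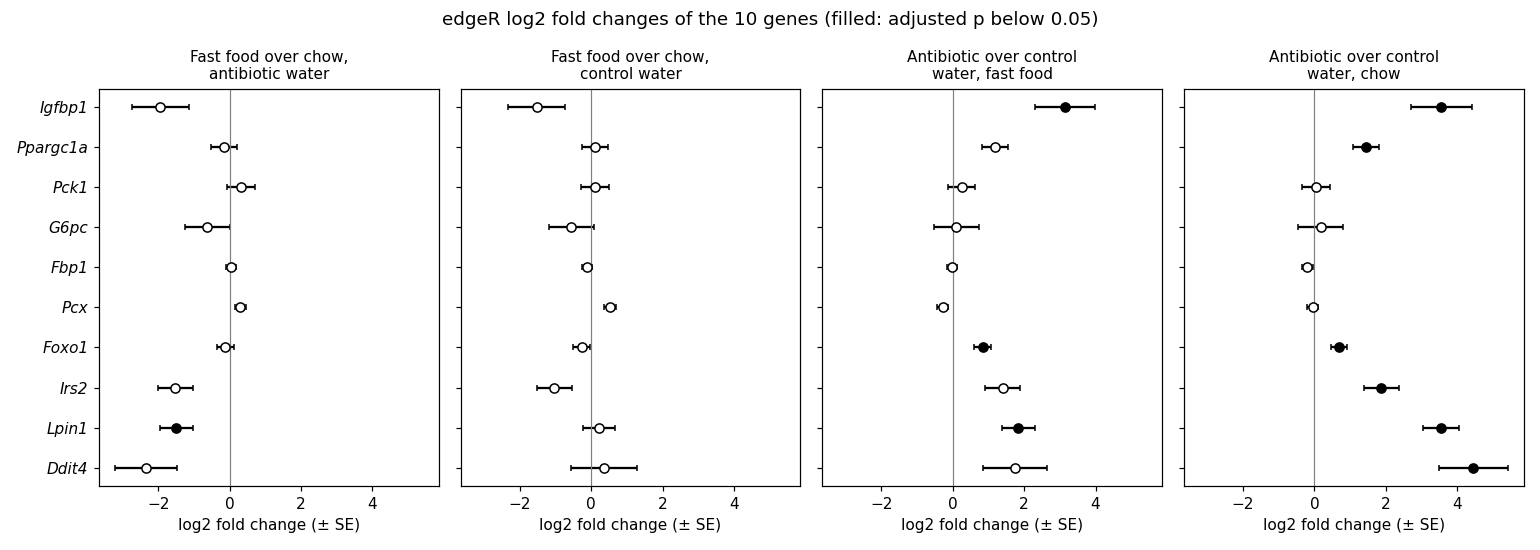
Log2 fold change of each of the 10 genes in 4 comparisons, with bars of 1 standard error and filled points where the edgeR adjusted p was below 0.05. Both antibiotic comparisons lie above 0 for the 6 secreted, signalling and regulatory genes, at 0.69 or more with chow, and the 4 enzymes lie near 0.

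The wider pathway was described with 5 lists of genes other than the 10. The insulin-induced list (Fasn, Srebf1 and others that insulin turns on after a meal) had 5 genes tested, and none passed in any of the 4 comparisons of groups by edgeR. At an unadjusted p under 0.05 there was 1 gene with antibiotics in each meal and none between meals. Fasn, fatty acid synthase, had a log2 difference of 0.81 between antibiotic and control water with chow (edgeR adjusted p = 0.0977).

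In the insulin and glucagon signalling list, 3 of 22 genes rose and 3 fell with antibiotics in mice given chow, where 23.8% of all genes passed. The median log2 fold change of the list was 0.00. Gcgr, the glucagon receptor, fell (-0.59 ± 0.12, edgeR adjusted p = 0.00272), as did Creb3l3, a membrane-bound CREB-like factor of fasting liver (-0.83 ± 0.20, adjusted p = 0.00767). Grb10, an adaptor that dampens insulin receptor signalling, rose (0.80 ± 0.18, adjusted p = 0.00504). With fast food, where 5.99% of all genes passed, 1 gene of the list rose, Insr, the insulin receptor (0.53 ± 0.14, adjusted p = 0.0413). The Insr call was lost without fast food control replicate 1, 2 or 3, chow antibiotic replicate 1, or replicate 2 of the fast food antibiotic group, 3 or 4.

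The list of the gluconeogenic route and its substrate supply had 26 genes tested. Of these 4 rose and 5 fell with antibiotics in mice given chow (median -0.11), where 23.8% of all genes passed. The 4 that rose were Slc37a4, a glucose-6-phosphate transporter (0.48, edgeR adjusted p = 0.0348), and 3 enzymes of amino acid breakdown, Got1, Tat and Sds. Gpt, Gpt2, Got2 and Glud1, which also handle amino acids, did not pass. Got1, the cytosolic aspartate aminotransferase, had 948, 2329, 2400 and 2282 CPM in chow antibiotic livers, against 220, 360, 285 and 409 CPM in chow control livers. The groups did not overlap (2.64 ± 0.30, edgeR adjusted p = 4.95e-05). Tat, tyrosine aminotransferase, a classic target of glucocorticoids and glucagon, also rose without overlap (1.86 ± 0.40, adjusted p = 0.00405), as did Sds, serine dehydratase (1.03 ± 0.21, adjusted p = 0.00272). The 5 that fell included those that bring glycerol into the route, Gk, glycerol kinase (-1.07 ± 0.19, adjusted p = 0.00116), and Gpd1, glycerol-3-phosphate dehydrogenase (-1.20 ± 0.20, adjusted p = 0.000624). The others were Ldha, lactate dehydrogenase (-1.42, adjusted p = 0.00257), Pck2, the mitochondrial PEPCK (-0.63, adjusted p = 0.0197), and Aqp9, a glycerol channel (-0.48, adjusted p = 0.0468).

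With fast food, Got1 had 1046, 597, 583 and 928 CPM in antibiotic livers, against 405, 416, 412 and 261 CPM in control livers (1.08 ± 0.29, edgeR adjusted p = 0.0419). Sds rose (0.80 ± 0.21, adjusted p = 0.0394) and Gpd1 fell (-0.92 ± 0.20, adjusted p = 0.021), so 2 of 26 rose and 1 fell, where 5.99% of all genes passed. The calls of Got1 and Sds were lost without any of the 4 fast food control libraries, chow antibiotic replicate 2, or replicate 1, 2 or 4 of the fast food antibiotic group. That of Gpd1 was lost without fast food control replicate 1 or 3 or fast food antibiotic replicate 4.

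The antibiotic difference in Got1 was smaller with fast food than with chow by the interaction test (-1.57 ± 0.41, edgeR adjusted p = 0.0423). That call was kept in 5 of 16 fits leaving out 1 library, those without chow control replicate 4, fast food control replicate 4, chow antibiotic replicate 1, or replicate 1 or 2 of the fast food antibiotic group. It was lost with the rRNA-like share as covariate (adjusted p = 0.0934) or with the term for its low and high side (adjusted p = 0.059), without a count filter (adjusted p = 0.065) and without the 3 libraries highest in acute phase transcripts (adjusted p = 0.0715).

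Among 16 targets of FOXO1 and glucocorticoids, 4 rose and 2 fell with antibiotics in mice given chow (median 0.53), where 23.8% of all genes passed. The lowest p-values were those of Per1, a clock gene that glucocorticoids induce (1.47 ± 0.24, edgeR adjusted p = 0.000544), Fkbp5, a cochaperone of the glucocorticoid receptor (1.27 ± 0.22, adjusted p = 0.000972), and Apoc3, an apolipoprotein that FOXO1 induces (1.00 ± 0.18, adjusted p = 0.001). The 2 that fell were Mttp (-0.43, edgeR adjusted p = 0.0169) and Sesn3 (-0.57, adjusted p = 0.0446), so the calls of the list went both ways. With fast food, where 5.99% of all genes passed, Per1 alone rose (0.96 ± 0.23, adjusted p = 0.0309). That call was lost without fast food control replicate 3 or 4 or fast food antibiotic replicate 1, 2 or 4.

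Among 10 relatives and partners of the genes, 3 rose with antibiotics in mice given chow (median 0.14), where 23.8% of all genes passed. None passed with fast food. Igf1, the growth factor that IGFBP1 binds, lay between 976 and 1295 CPM in chow antibiotic livers and between 438 and 567 CPM in chow control livers (1.17 ± 0.19, edgeR adjusted p = 0.000419). Igfbp4 (0.69 ± 0.12, adjusted p = 0.000891) and Igfbp3 (0.92 ± 0.29, adjusted p = 0.0292), further carriers of the growth factor, rose as well. The Igfbp3 call was lost without chow control replicate 1, 2 or 3 or chow antibiotic replicate 2.

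Most genes of these lists called and named in the chow antibiotic comparison kept their calls whichever library was left out. The exceptions were Igfbp3, Slc37a4, Pck2, Aqp9, Mttp and Sesn3. Slc37a4 kept its call in 10 of the 16 fits, Pck2 in 13, Aqp9 in 5, Mttp in 14 and Sesn3 in 7. Leaving aside Mttp and Sesn3, whose values there are not given, none of the genes named passed among the high-share libraries alone.

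Between meals in antibiotic water, where 13.7% of all genes passed, 1 of 22 signalling genes did, Grb10, which was lower after fast food (-0.74 ± 0.18, edgeR adjusted p = 0.0165). In the route list 2 of 26 rose and 2 fell, among them Gk (0.73 ± 0.19, adjusted p = 0.0227), Got1 (-1.34 ± 0.29, adjusted p = 0.00991) and Slc37a4, the glucose-6-phosphate transporter that works with G6pc (-0.62 ± 0.16, adjusted p = 0.0188). Of the 16 targets 1 rose and 2 fell, Sesn3 (0.85 ± 0.20, adjusted p = 0.0126), Apoc3 (-0.82 ± 0.18, adjusted p = 0.00948) and Sesn1 (-1.49 ± 0.37, adjusted p = 0.0188, and -0.87 without chow antibiotic replicate 3), the sestrins being stress-induced regulators of mTORC1. Of the relatives Igfbp4 fell (-0.38 ± 0.12, adjusted p = 0.0455).

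The calls of Got1 and Apoc3 between meals held whichever library was left out. Those of Grb10, Slc37a4 and Sesn1 were lost without fast food antibiotic replicate 3 or 4, that of Gk also without chow antibiotic replicate 1 or 2, that of Sesn3 without fast food antibiotic replicate 4, and that of Igfbp4 held in 5 of the 16 fits. None of these 8 passed in a fit of the 2 groups alone or among the high-share libraries. In control water no gene of the 5 lists passed between the meals, where 0.577% of all genes did.

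**Figure D3:**
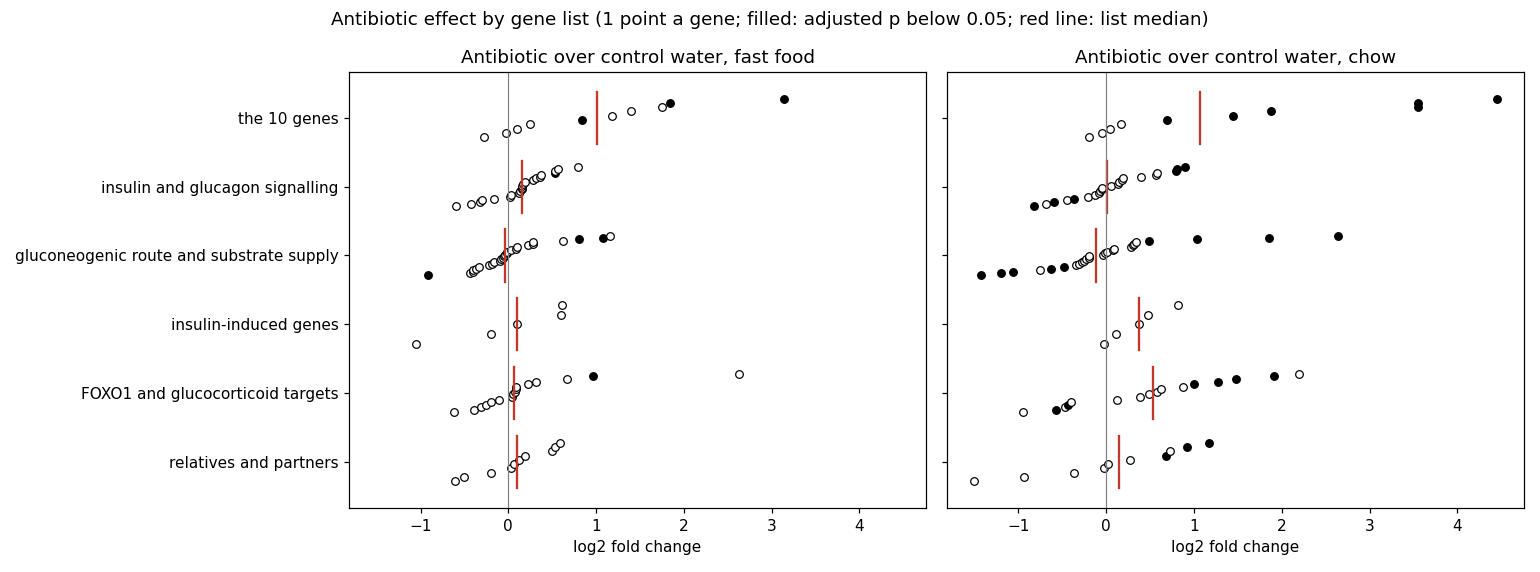
Log2 fold change of antibiotic over control water for the 10 genes and for each gene of the 5 lists, with fast food on the left and chow on the right. Points are genes, filled where the edgeR adjusted p was below 0.05, and the red line is the median of the list. With chow the 10 genes have a median of 1.07, and the signalling and route lists have medians of 0.00 and -0.11 with calls on both sides of 0.

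Levels of different genes were compared in TPM (counts divided by merged exon length and scaled to a common total, mean ± SD, n = 4 libraries). The merged exons of all annotated transcripts of a gene can be longer than the transcript expressed, which lowers its TPM. The common total includes the rRNA-like features, so a high share lowers the TPM of every other gene in its library. TPM therefore ranks genes within a group, and its SD and any difference between groups also hold the differences in share. In chow antibiotic livers Igfbp1 had 3307 ± 1890 TPM and Pck1 3002 ± 2283 TPM, which overlap within their spread. Fbp1 followed with 1290 ± 295 TPM, G6pc with 526 ± 483 TPM and Lpin1 with 421 ± 234 TPM, and G6pc and Lpin1 did not differ beyond their spread. Pcx had 328 ± 103 TPM, Ddit4 163 ± 194 TPM, Irs2 63.1 ± 29.1 TPM, Ppargc1a 13.3 ± 10.4 TPM and Foxo1 12.3 ± 4.6 TPM.

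In chow control livers the order differed. Pck1 came first with 3187 ± 774 TPM and Fbp1 next with 1847 ± 523 TPM, ahead of G6pc at 503 ± 234 TPM, Pcx at 418 ± 165 TPM and Igfbp1 at 348 ± 325 TPM, which did not differ beyond their spread. Lpin1 had 42.1 ± 16.3 TPM, Irs2 23.2 ± 14.4 TPM, Foxo1 8.99 ± 3.57 TPM, Ddit4 8.01 ± 5.29 TPM and Ppargc1a 5.55 ± 0.68 TPM.

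After fast food, Pck1 was the most abundant of the 10 with either water, at 3637 ± 585 TPM in antibiotic livers and 3966 ± 362 TPM in control livers, and Fbp1 came next at 1509 ± 403 TPM and 1944 ± 147 TPM in the same groups. In antibiotic livers Igfbp1 had 913 ± 960 TPM, a spread that takes in the means of Fbp1, Pcx (454 ± 167 TPM) and G6pc (335 ± 154 TPM). Its rank there is therefore not distinct. In control livers Igfbp1, at 139 ± 83.0 TPM, came behind Pcx at 685 ± 14.8 TPM and G6pc at 389 ± 137 TPM. In CPM, mean Pck1 was 5270 in fast food antibiotic and 4447 in fast food control livers, and mean Fbp1 was 1060 and 1081.

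Across the 16 libraries the genes did not all run together. Pearson correlations of log2 CPM below are descriptions over 16 libraries that share groups, depth and rRNA-like share, and they carry no test. Igfbp1 went with Irs2 (r = 0.89), Lpin1 (0.88), Ddit4 (0.86) and Foxo1 (0.84), and Lpin1 with Ddit4 (0.92). Without the 2 libraries farthest from the median these were 0.87, 0.84, 0.90, 0.95 and 0.89. After subtraction of group means they were 0.58, 0.57, 0.64, 0.68 and 0.79 over all libraries. Irs2 and Lpin1 had r = 0.71 over all libraries and -0.08 after that subtraction. Igfbp1 had r = -0.17 with Pck1 and -0.08 with G6pc.

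Pck1 and G6pc had r = 0.83 (Spearman 0.46) over all libraries. Without chow antibiotic replicates 3 and 4, the libraries with the highest and lowest values, it was 0.15, so the relation rests on those libraries.

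Of all genes tested, the 5 most like Igfbp1 across the 16 libraries were Tat (r = 0.98, Spearman 0.96), Adcy1 (0.96), Prkar1a (0.95), Lrrc8c (0.95) and Trp53inp1 (0.95), and the lowest of these without chow antibiotic replicates 3 and 4 was 0.91. Tat had 4930.4, 5539.5, 1473 and 2469 CPM in fast food antibiotic livers, 5172, 6410.2, 9096 and 6788 CPM in chow antibiotic livers, 1884, 2292, 1183 and 1104 CPM in fast food control livers and 1356, 2958, 1879 and 1381 CPM in chow control livers. Its highest library among controls was chow control replicate 2, as for Igfbp1. The gene most like both Pck1 and G6pc was Tob1 (r = 0.95 and 0.88), with 0.61 and 0.57 once chow antibiotic replicates 3 and 4 were left out.

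**Figure D4:**
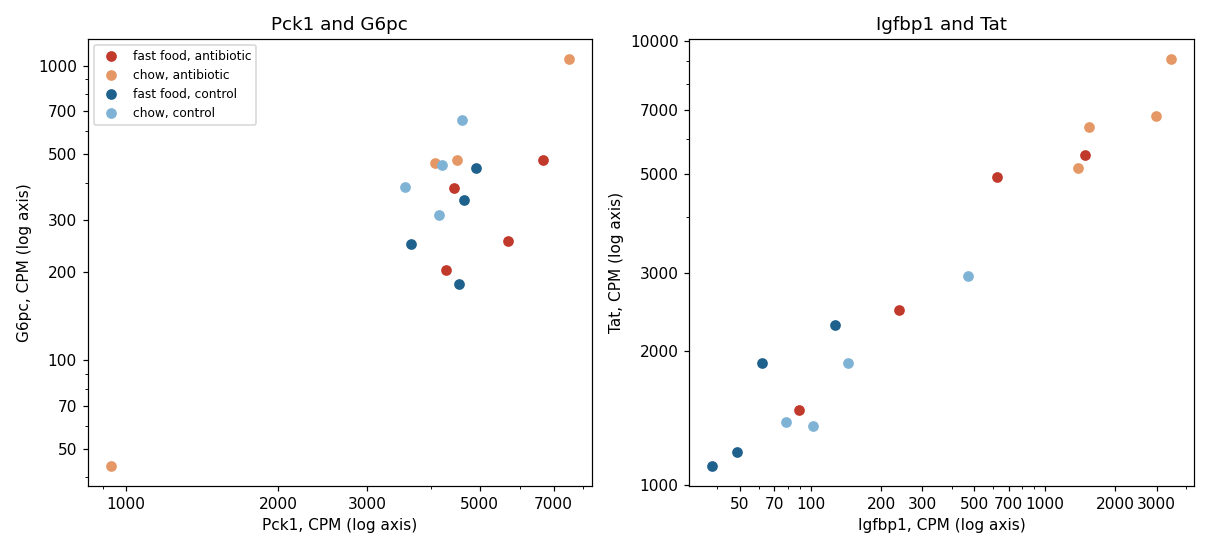
Pck1 against G6pc and Igfbp1 against Tat, both axes in CPM on log scales, with 1 point per library coloured by group. Igfbp1 and Tat run together through all 4 groups (r = 0.98), while for Pck1 and G6pc the 2 extreme points are chow antibiotic replicates 3 and 4.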

How the data were processed

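Liver mRNA was sequenced as single reads of 50 bp, per the labels. The values are whole-number read counts per gene, deposited as 1 table by the authors. Tools listed in the submitters' processing notes are STAR, HTSeq, cutadapt, FastQC, edgeR and DESeq2, with the build GRCm38.p6. The strand setting is not given in the sources used here. All 13 mitochondrial genes had a count of 0.

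Libraries were grouped by the meal and water in their labels. Genes were filtered with edgeR's filterByExpr (minimum count 10), scaled by TMM and fitted over all 4 groups with edgeR's quasi-likelihood test (R 4.3.3, edgeR 4.0.16, limma 3.58.1), with Benjamini-Hochberg adjustment over the 13180 genes tested and a threshold of 0.05. Positive log2 values mean higher in antibiotic than control water, or after fast food than chow. CPM uses TMM-scaled library sizes. TPM and names use GENCODE gene models, and promoters are RefSeq's. No 2 libraries were identical.

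The genes and lists were chosen with earlier results of these data known. Named were all 10 genes, up to 3 called genes per list and comparison with the lowest p, and the 5 genes most correlated with Igfbp1, Pck1 and G6pc. Fasn and Srebf1 were added after their values were seen. So were, for antibiotics with chow, Mttp, Sesn3 and the genes of the route list other than Got1, Gpd1 and Gk. The values of 1 gene of the insulin-induced list are not reported here. Alternatives were DESeq2 1.42.0, RLE scaling, no count filter, a mean of 10 counts in every group, fits of 2 groups, a replicate block, each library left out, removal of the 3 libraries highest in acute phase transcripts, and the rRNA-like share as covariate or split term. Fits restricted to low-share or high-share libraries were added after seeing the data.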

Additional observations from a re-analysis of the deposited data

Results flagged for a closer look

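In chow control livers, the Igfbp1 level of replicate 2, 470.6 CPM, stood far from the other 3 libraries: its gap to the nearest was 0.833 of the group's range. In fast food antibiotic livers, the Fbp1 level of replicate 2, 842 CPM, stood as far from the others, below them. These were 2 of 40 sets of 4 libraries examined, and chance alone sets apart about 1 in 20.

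Of 81 listed genes 3 passed edgeR's interaction test of meal and water, a share near the 3.94% of all genes tested that passed. The count therefore does not set the lists apart from other genes. The interaction, fast food minus chow, was -1.57 on the log2 scale for Got1 (adjusted p = 0.0423). It was -1.11 for Apoc3 (adjusted p = 0.0244) and -0.62 for Igfbp4 (adjusted p = 0.0486). The Apoc3 call was lost without fast food control replicate 1, 2 or 3, chow antibiotic replicate 2 or replicate 4 of the fast food antibiotic group. That of Igfbp4 was kept only without chow control replicate 4, chow antibiotic replicate 1 or replicate 2 of the fast food antibiotic group, and that of Got1 in 5 of 16 such fits. All 3 calls were lost with the rRNA-like share as covariate (edgeR adjusted p = 0.0934 for Got1, 0.0778 for Apoc3 and 0.0979 for Igfbp4) and with the term for its low and high side (0.059, 0.0618 and 0.0688 in the same order). Those of Got1 and Igfbp4 were also lost without a count filter (0.065 and 0.0624), and that of Got1 without the 3 libraries highest in acute phase transcripts (0.0715).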

How the results depend on the processing

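Counts of the 10 genes called follow. Shares of all genes in the alternative fits are mostly not given. The counts therefore do not show whether the 10 genes moved more than other genes. For fast food against chow in antibiotic water the count was 1, and it was 3 by DESeq2, 0 without a count filter, 0 in a fit of the 2 groups, 4 without the 3 libraries highest in acute phase transcripts and 0 among high-share libraries. In control water it was 0, and 1 by DESeq2. For antibiotics with fast food it was 3, and it was 5 by DESeq2 and 0 without a count filter, with the rRNA-like share as covariate and with the split term. With chow it was 6, and 4 in a fit of the 2 groups, 5 without a count filter and 0 among high-share libraries. For the interaction it was 0, and 1 by DESeq2. Leaving out 1 library gave 0 to 4, 0 to 1, 0 to 4, 5 to 6 and 0 to 1 calls in these comparisons, and 6 to 7 for any difference. Causes were not tested.

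The labels do not say that replicate numbers pair the libraries. Of 24 same-number pairs 3 correlated above 0.1 (range -0.22 to 0.36). Pairs of unlike number were not compared, so these values cannot decide whether the numbers pair mice. With a replicate block the counts were 2 for fast food against chow in antibiotic water, 0 in control water, 3 for antibiotics with fast food, 6 with chow, 0 for the interaction and 7 for any difference. Of the listed genes, the block lost the interaction calls of Got1 (edgeR adjusted p = 0.0777) and Igfbp4 (adjusted p = 0.0738), the Got1 call for antibiotics with fast food (adjusted p = 0.063) and the Igfbp4 call between meals in antibiotic water (adjusted p = 0.0623). Under the block Pck1 was -0.085 and G6pc -0.051 with chow, and the G6pc interaction was 0.061, each reversed.

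Other reversals, all of values that did not pass, were these. Among high-share libraries the meal difference in antibiotic water was 0.32 for Ppargc1a, 0.22 for G6pc and -0.16 for Fbp1, and the antibiotic difference with chow was -0.59 for Pck1, -0.52 for G6pc, 0.12 for Fbp1 and 0.21 for Pcx. Among low-share libraries the meal difference in control water was 0.095 for Foxo1 and -0.031 for Lpin1. With the share as covariate it was -0.090 for Pck1 and -0.13 for Ddit4, the antibiotic difference with chow was -0.0052 for Pck1 and 0.0098 for Pcx, and the interaction was 0.75 for G6pc and -0.067 for Foxo1. With the split term the values were -0.061 for Pck1 between meals in control water, -0.018 for Pck1 with chow, and 0.69 for G6pc and -0.20 for Foxo1 in the interaction. Without the 3 acute phase libraries they were 0.025 for Foxo1 between meals in control water, 0.047 for Fbp1 with antibiotics and fast food, and -0.087 for Pck1 and -0.43 for Foxo1 in the interaction. Leaving out 1 library reversed 28 of 1456 gene values, none of which had passed. Their ranges between meals in antibiotic water were -0.39 to 0.32 for Ppargc1a, -0.054 to 0.73 for Pck1, -1.04 to 0.0013 for G6pc and -0.075 to 0.13 for Fbp1, and in control water -0.042 to 0.23 for Ppargc1a, -0.40 to 0.0079 for Foxo1 and -0.22 to 0.76 for Ddit4. With antibiotics they were -0.13 to 0.35 for G6pc and -0.097 to 0.059 for Fbp1 with fast food, and -0.38 to 0.40 for Pck1, -0.46 to 0.58 for G6pc and -0.13 to 0.17 for Pcx with chow. For the interaction they were -1.37 to 0.063 for Igfbp1, -0.51 to 0.21 for Ppargc1a, -0.17 to 0.63 for Pck1, -0.50 to 0.56 for G6pc, -0.13 to 0.27 for Foxo1 and -0.98 to 0.14 for Irs2.

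Depth limits Ddit4 most, with a lowest count of 30 in a library. Fits restricted by share were not possible where a group kept fewer than 2 libraries.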
